A study of Mus musculus with 8 samples.

Results

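This section describes 10 transcription regulators of the heart fields in whole mouse embryos, chosen by name as factors of the first and the second heart field outside the Gata family. All 10 were found among the 41709 gene symbols of the table. The embryos were taken at embryonic day 9.5 from crosses of SmoK399A/+ females and males. Smo transduces the Hedgehog signal, and K399A replaces a lysine of the protein with alanine. Of the 8 embryos, 4 carried only wild-type Smo (Smo+/+, WT) and 4 were homozygous for the substitution (SmoK399A/K399A, mutant), which all cells of the embryo inherit. Each embryo was frozen and sequenced on its own. The embryos came from more than 1 litter, but neither the litter of an embryo nor its somite number is given.

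The heart forms from mesoderm of the early embryo. Cells of the first heart field make the early heart tube, and cells of the second heart field, which lie behind the pharynx, are added to its poles as it loops and grows. A small set of transcription factors acts in these cells, among them a homeodomain protein (Nkx2-5), T-box proteins (Tbx1, Tbx2, Tbx5 and Tbx20), basic helix-loop-helix proteins (Hand1 and Hand2), a MADS-box protein (Mef2c) and a LIM-homeodomain protein (Isl1), which bind DNA in shared combinations. Hedgehog ligands from the pharyngeal and foregut endoderm signal to the second heart field. Most of these genes also act elsewhere in the embryo: Tbx5 and Hand2 in the limb bud, Isl1 in motor and sensory neurons, Tbx1 in the pharyngeal arches, and Hand1 in extraembryonic mesoderm and trophoblast. In whole embryos, a change in the number of cells of a type and a change in the RNA per cell cannot be told apart.

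The upstream sequences of 3 members whose levels were on average higher in mutants are shown, to set windows with several, 1 and no matches to heart factor motifs side by side. Each is the 250 bases before the RefSeq transcript start, 5′ to 3′ on the strand of the gene, from the RefSeq promoter table of build GRCm38.p6. Capitals mark matches, on either strand, to any of 6 motifs. The motif of NKX2-5 was searched as CAAGTG and that of T-box proteins as AGGTGT. The letters for GATA factors were AGATAA, and for the E-box, which basic helix-loop-helix proteins bind, CATCTG. The core of the GLI motif was searched as GGGTGGTC, and the MEF2 motif was the sixth. No matches overlapped.
Hand2, chr8:57320733-57320982, plus strand: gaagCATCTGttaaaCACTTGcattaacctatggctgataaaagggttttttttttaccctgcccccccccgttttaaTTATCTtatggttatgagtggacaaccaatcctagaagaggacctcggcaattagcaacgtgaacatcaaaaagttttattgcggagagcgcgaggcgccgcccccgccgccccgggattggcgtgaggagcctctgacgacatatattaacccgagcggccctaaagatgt
Tbx1, chr16:18590672-18590921, minus strand: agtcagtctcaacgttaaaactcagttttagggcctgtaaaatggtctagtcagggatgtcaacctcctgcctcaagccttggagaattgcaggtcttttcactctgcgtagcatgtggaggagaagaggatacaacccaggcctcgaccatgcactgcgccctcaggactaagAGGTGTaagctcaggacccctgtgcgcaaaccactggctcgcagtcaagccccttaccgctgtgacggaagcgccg
Nkx2-5, chr17:26841566-26841815, minus strand: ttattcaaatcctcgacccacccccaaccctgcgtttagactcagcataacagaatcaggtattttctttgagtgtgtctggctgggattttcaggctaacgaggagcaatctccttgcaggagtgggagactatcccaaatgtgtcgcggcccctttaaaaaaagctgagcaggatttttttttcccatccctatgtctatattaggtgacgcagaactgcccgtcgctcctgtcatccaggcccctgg

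The Hand2 window held an E-box that began 246 bases before the start, an NKX2-5 motif at 235 bases and a GATA motif at 172 bases. The Tbx1 window shown held a T-box motif at 76 bases before the start, and the window of its other RefSeq start held none of the 6 motifs. The Nkx2-5 window also held none. Across 32851 promoter windows of the same length, 11.6% held the NKX2-5 motif, 11.8% the T-box motif, 9.99% the GATA motif, 14.4% the E-box, 3.20% the MEF2 motif and 0.703% the GLI core. The table gave 11 windows for 7 of the members, and 0 of these windows held the GLI core or the MEF2 motif. A match to such short motifs is a description of the letters and not a binding site.

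The values are TPM, a transcript abundance in which reads are divided by gene length and scaled to the same total of 1000000 in each library. Read numbers recovered from the steps of the TPM values came to between 59053111 and 60424739 per library over symbols with a single GENCODE M21 gene. The member value with the fewest reads, Nkx2-5 in WT 3, rested on 307 reads and that with the most, Hand1 in mutant 1, on 6252 reads. Heart tissue was present in every library: the 22 chamber and contractile genes of heart muscle summed to between 2100 and 2798 TPM in WT and between 2870 and 5396 TPM in mutants. Mutant 1 stood at the top of that range, with 3181 TPM as the sum in mutant 4 and 3527 TPM in mutant 3. The libraries of mutants 3 and 4 stood apart in mt-Nd6, a mitochondrial transcript, at 4.06 and 10.8 TPM against 27.9 to 36.2 TPM in the other embryos.

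In WT embryos the members covered a wide range of levels. Hand1 was the most abundant, at 73.2 ± 11.4 TPM (SD, n = 4), followed by Hand2 at 39.8 ± 7.95 TPM. Hopx (19.4 ± 1.93 TPM), Tbx2 (17.4 ± 3.43), Isl1 (16.5 ± 3.60) and Nkx2-5 (12.7 ± 2.89) followed. The lowest means were those of Tbx1 (8.24 ± 1.57 TPM), Tbx20 (6.74 ± 0.935), Tbx5 (4.65 ± 1.22) and Mef2c (4.08 ± 0.417). Only the steps from Hand1 to Hand2 and from Hand2 to Hopx separated neighbours whose WT values did not overlap, and the other 7 neighbouring pairs overlapped. The order of the low members depends on the length by which reads are divided. Mef2c was divided by its merged exons of 15715 bases, and its longest transcript has 6277 bases. On that length its WT mean would be 10.2 TPM, above Tbx20 (8.90 TPM) and Tbx5 (5.52 TPM) on theirs. A ratio of TPM between embryos does not depend on this length, but the fold changes below are on TPM + 1, where a larger divisor brings a low gene nearer 0. For Mef2c the log2 fold change was 0.54 with 1 TPM added and 0.63 with 0.1 TPM added.

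Mutants were then compared with WT to ask how the transcripts of these factors differ when Smoothened carries the substitution. On average 8 of the 10 members were higher in mutants, as were 37.7% of all genes tested, and 2, Isl1 and Tbx2, were lower. By limma on log2(TPM + 1), with p-values adjusted over all 13596 genes tested, 0 of the 10 passed the threshold of 0.05, as did 0% of all genes. The smallest adjusted p of a member was 0.281. At an unadjusted p under 0.05 there were 8 members, all higher in mutants, against 5.55% of all genes in that direction. Limma voom on recovered reads also passed 0 members. The exact permutation test per gene could pass none, since its smallest possible p, 0.0286, came to 0.383 after adjustment. For 4 members, Nkx2-5, Tbx5, Tbx20 and Mef2c, every mutant lay above every WT embryo, against 3.63% of all genes. Every mutant lay below every WT embryo for 0 members, against 3.82% of all genes. The median log2 fold change of the 10 members was 0.55, and that of all genes tested was -0.04.

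**Figure D1:**
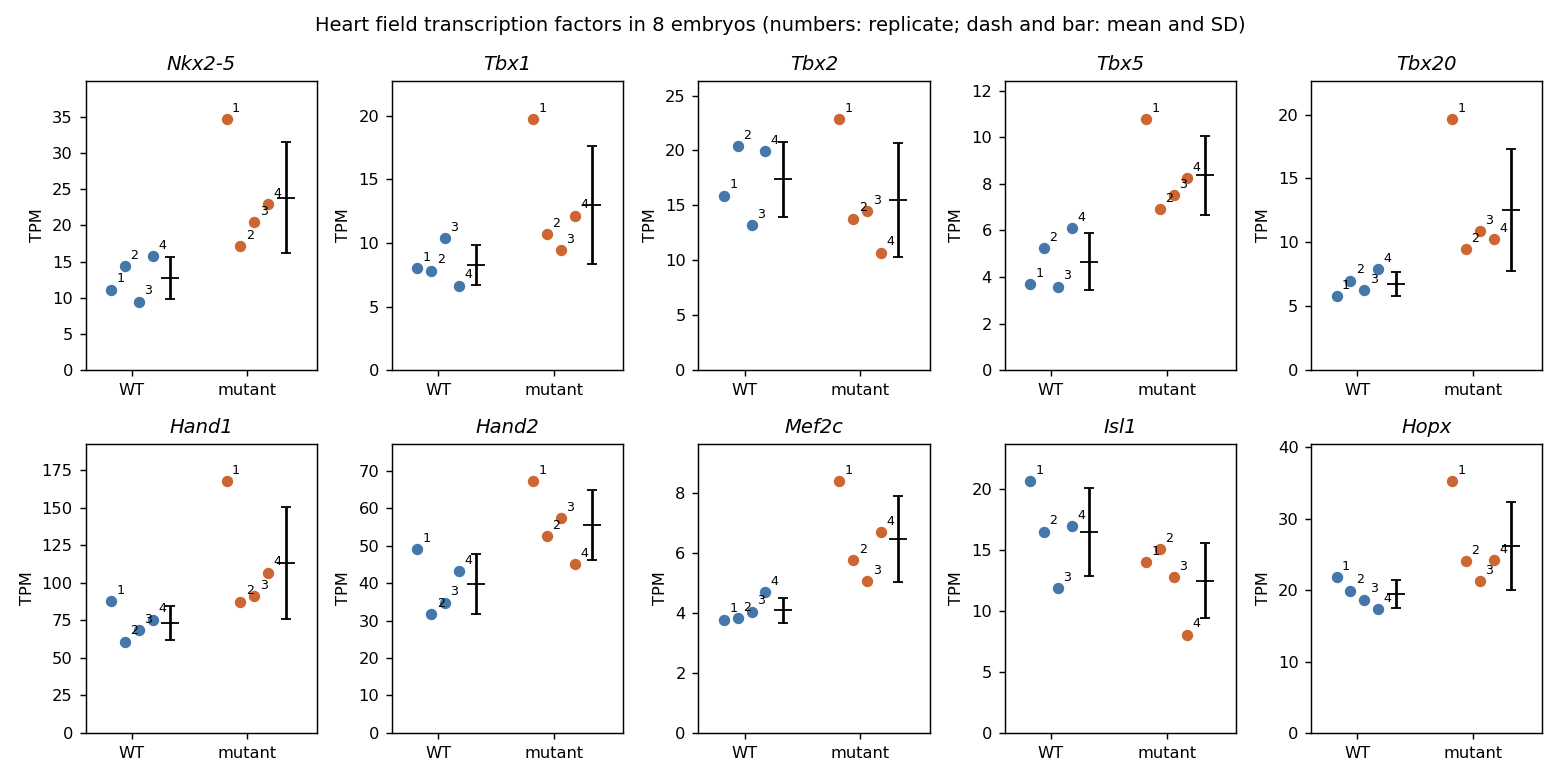
TPM (vertical axes, each from 0) of the 10 heart field factors in the 4 WT and 4 mutant embryos; points are embryos, numbered by replicate, and the dash and bar give the mean and SD of each group. Mutant 1 is the highest embryo in 9 panels, and in the Nkx2-5, Tbx5, Tbx20 and Mef2c panels all mutants lie above all WT embryos.

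Nkx2-5 (chromosome 17, 26838664 to 26845009, build GRCm38) encodes a homeodomain factor that is switched on in cardiac progenitors and is needed for looping and chamber growth. Its levels were 11.1, 14.4, 9.48 and 15.8 TPM in WT 1 to 4 and 34.7, 17.2, 20.5 and 22.9 TPM in mutants 1 to 4. The lowest mutant, mutant 2, lay just above the highest WT embryo, WT 4. The mutant mean of 23.8 ± 7.63 TPM (SD, n = 4) was 1.88 times the WT mean. The log2 fold change, here and below on the scale of TPM + 1, was 0.84 ± 0.21 (SE; 95% confidence interval 0.35 to 1.32; limma adjusted p = 0.281), the largest of the members. Without mutant 1 it was 0.65.

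Tbx5 (chromosome 5, 119832668 to 119885219) acts in the atria, the inflow region and the left ventricle, and also starts the forelimb bud. It was at 3.69, 5.25, 3.59 and 6.09 TPM in WT 1 to 4 and at 10.8, 6.92, 7.50 and 8.24 TPM in mutants 1 to 4. WT 1 and WT 3 were the low embryos for Tbx5 as they were for Nkx2-5, and mutant 1 was again the highest. Its log2 fold change was 0.74 ± 0.18 (SE; interval 0.34 to 1.13; limma adjusted p = 0.281), and 0.62 without mutant 1. A list of 12 limb bud genes was not limited to the forelimb. Of these, 8 were on average lower in mutants, a share near the 62.3% of all genes that were lower. Their median log2 fold change over the 12 was -0.19, or -0.10 without mutant 4 and -0.32 without WT 3, and none passed. The lowest fold changes in the list were those of the Hox genes Hoxd10 (-0.84), Hoxd11 (-0.83), Hoxa9 (-0.72) and Hoxa11 (-0.71).

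Tbx20 (chromosome 9, 24718138 to 24774303) encodes a T-box factor of heart muscle and endocardium that limits Tbx2 in the chambers. Its levels were 5.77, 7.01, 6.27 and 7.92 TPM in WT 1 to 4 and 19.7, 9.46, 10.9 and 10.3 TPM in mutants 1 to 4. Mutant 1 was far from the other mutants, which lay close together, and all 4 were above the WT embryos. For Tbx20 the log2 fold change of 0.76 ± 0.20 (SE; interval 0.30 to 1.22; limma adjusted p = 0.281) was 0.54 without mutant 1.

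Mef2c (chromosome 13, 83504034 to 83667080), a factor of heart muscle and of the second heart field that is also expressed in endothelium and skeletal muscle, varied little among WT embryos, at 3.78, 3.83, 4.04 and 4.68 TPM. In mutants 1 to 4 it was at 8.39, 5.75, 5.06 and 6.69 TPM, so that mutant 3 lay closest to WT. Mef2c thus had a log2 fold change of 0.54 ± 0.14 (SE; interval 0.22 to 0.86; limma adjusted p = 0.281), and 0.42 without mutant 1. For these 4 genes the two-sided exact permutation p was 0.0286, the smallest that 4 embryos against 4 can give. Of 12 endothelial genes, 11 were on average higher in mutants, against 37.7% of all genes. For 8 of them every mutant lay above every WT embryo, against 3.63% of all genes. The 12 genes summed to 187 to 219 TPM in WT and 210 to 288 TPM in mutants. The part of endothelium in the Mef2c difference was not tested.

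The Hand genes encode basic helix-loop-helix factors of the ventricles, Hand1 mainly of the left and Hand2 mainly of the right ventricle and outflow tract. Hand1 (chromosome 11, 57828705 to 57832818) was at 87.7, 60.9, 68.7 and 75.5 TPM in WT 1 to 4 and at 167.5, 87.5, 91.0 and 106.8 TPM in mutants 1 to 4. Mutant 2 and WT 1 were almost equal, so that 3 of 4 mutants lay above all WT embryos. Hand1 differed by 0.58 ± 0.19 on the log2 scale (SE; interval 0.15 to 1.02; limma adjusted p = 0.306), with an exact permutation p of 0.0571, and by 0.38 without mutant 1.

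Hand1 is also a factor of the mesoderm of the extraembryonic membranes and of trophoblast, and markers of such tissue were also on average higher in mutants. The order of the embryos differed beyond mutant 1. Mutant 4, at 106.8 TPM of Hand1 above mutants 2 and 3, had the lowest mutant sum of both marker lists. The 16 genes of yolk sac endoderm summed to 18.7 to 279 TPM in WT and to 168 to 1422 TPM in mutants, with the highest sums in mutant 1 (1422 TPM) and mutant 2 (889 TPM). The 12 trophoblast and decidua genes summed to 46.3 to 86.1 TPM in WT and to 79.3 to 379 TPM in mutants, with the highest sum in mutant 2, which was the lowest mutant for Hand1. With the mean of the yolk sac genes as a covariate, the log2 fold change of Hand1 was 0.45 (limma adjusted p = 0.440). The part of extraembryonic tissue in the Hand1 difference was not tested.

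Hand2 (chromosome 8, 57320983 to 57324633) was at 49.2, 31.8, 34.8 and 43.3 TPM in WT 1 to 4 and at 67.2, 52.5, 57.3 and 45.1 TPM in mutants 1 to 4. WT 1, the highest WT embryo for both Hand genes, lay above mutant 4. Hand2 differed by 0.48 ± 0.15 on the log2 scale (SE; interval 0.14 to 0.82; limma adjusted p = 0.299), with an exact permutation p of 0.0571, and by 0.38 without mutant 1. Exons of Hand2 share 461 of their 2351 bases with the antisense gene Hand2os1, and the strandedness of counting is not given, so reads there cannot be assigned to a strand. Hand2os1 itself had mean levels of 1.13 ± 0.291 TPM (WT) and 1.12 ± 0.478 TPM (mutants).

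Tbx1 (chromosome 16, 18580979 to 18590671) keeps cells of the second heart field and of the pharyngeal arches dividing and undifferentiated. It was at 8.06, 7.84, 10.4 and 6.66 TPM in WT 1 to 4 and at 19.8, 10.7, 9.45 and 12.2 TPM in mutants 1 to 4. WT 3 lay above mutant 3, and mutant 1 was far above the other embryos. Tbx1 differed by 0.56 ± 0.21 on the log2 scale (SE; interval 0.09 to 1.03; limma adjusted p = 0.324), with an exact permutation p of 0.0571, and by 0.36 without mutant 1. WT 3 was also the WT embryo with the highest yolk sac sum (279 TPM). With the yolk sac mean as a covariate the log2 fold change of Tbx1 was 0.11 ± 0.25 (SE; limma adjusted p = 0.849). The part of yolk sac tissue in the Tbx1 difference was not tested. Of 16 other pharyngeal arch genes, 9 were on average higher in mutants, against 37.7% of all genes. Their median log2 fold change was 0.02, or -0.08 without mutant 1 and -0.01 without WT 3.

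Hopx (chromosome 5, 77086988 to 77115121) encodes a small homeodomain protein that does not bind DNA and acts on serum response factor in cardiac myoblasts. It was at 21.9, 19.9, 18.7 and 17.3 TPM in WT 1 to 4 and at 35.2, 24.0, 21.3 and 24.2 TPM in mutants 1 to 4. WT 1 lay between mutant 3 and the other mutants. Hopx differed by 0.39 ± 0.14 on the log2 scale (SE; interval 0.07 to 0.71; limma adjusted p = 0.319), with an exact permutation p of 0.0571, and by 0.24 without mutant 1. With the yolk sac mean as a covariate it was 0.20 (limma adjusted p = 0.618). In that fit 2 members, Nkx2-5 and Tbx5, remained at an unadjusted p under 0.05, both higher in mutants, against 1.65% of all genes. Their log2 fold changes there were 0.89 and 0.79, against 0.84 and 0.74 without the covariate. The SE of every member was larger with the covariate, at 0.33 against 0.21 for Nkx2-5 and 0.24 against 0.15 for Hand2. The count at that p thus depends on the SE as well as on the fold change. Hopx shares 412 of its 1516 exon bases with the antisense gene Hopxos, which rested on at most 7 reads per library.

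Isl1 and Tbx2 were the members with a lower mean in mutants. Isl1 (chromosome 13, 116298281 to 116309689) marks progenitors of the second heart field before they differentiate, and is also a factor of motor and sensory neurons. Its levels were 20.6, 16.5, 11.9 and 17.0 TPM in WT 1 to 4 and 14.0, 15.1, 12.8 and 8.06 TPM in mutants 1 to 4. The groups overlapped, since WT 3 lay below 3 of the mutants, and only mutant 4 was below all WT embryos. Its log2 fold change was -0.38 ± 0.20 (SE; interval -0.84 to 0.07; limma adjusted p = 0.413; exact permutation p = 0.171), and -0.20 without mutant 4.

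The neuronal list was lower in the same direction as Isl1. All 7 of its 12 genes that were abundant enough to be tested had lower means in mutants, against 62.3% of all genes. Their median log2 fold change was -0.52, or -0.29 without mutant 4, and none passed. The summed level of the 12 genes was 44.0 to 78.5 TPM in WT and 23.6 to 48.7 TPM in mutants, lowest in mutant 4, the embryo that was lowest for Isl1. Isl2, a paralogue of Isl1 in motor neurons, had means of 4.03 ± 1.21 TPM (WT) and 2.33 ± 1.05 TPM (mutants; SD, n = 4 each). The part of neurons in the Isl1 difference was not tested.

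Tbx2 (chromosome 11, 85832551 to 85841948) encodes a repressor that keeps chamber genes off in the atrioventricular canal and outflow tract. It was at 15.9, 20.4, 13.2 and 19.9 TPM in WT 1 to 4 and at 22.9, 13.8, 14.5 and 10.7 TPM in mutants 1 to 4. Mutant 1 was the highest and mutant 4 the lowest of all 8 embryos, so the mutants surrounded the WT embryos. Its log2 fold change of -0.19 ± 0.21 (SE; interval -0.67 to 0.29; limma adjusted p = 0.683; exact permutation p = 0.514) was -0.38 without mutant 1, -0.04 without mutant 4 and 0.05 without mutants 3 and 4. Tbx3, the related repressor of the same regions, had mean levels of 14.4 ± 3.08 TPM (WT) and 14.3 ± 1.76 TPM (mutants).

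**Figure D2:**
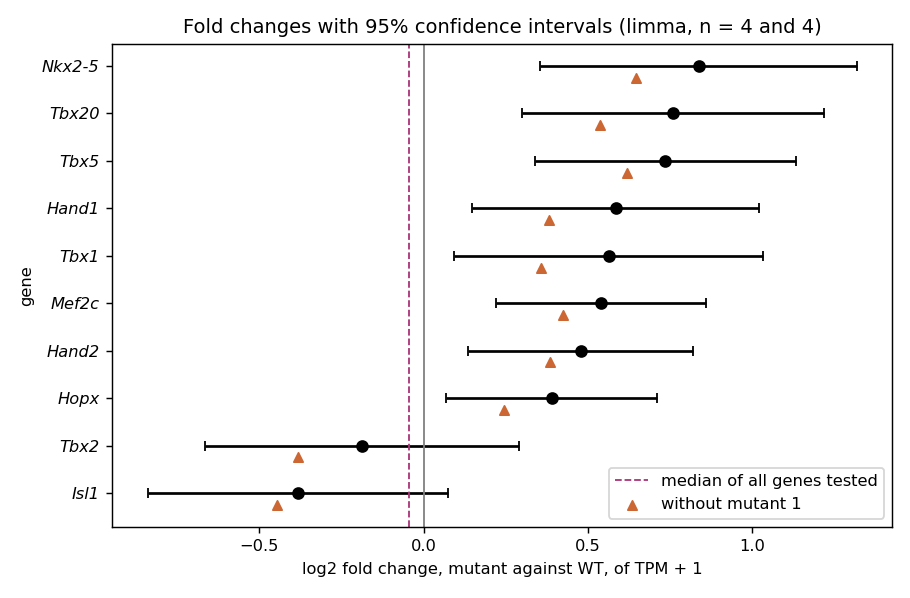
Log2 fold change of each member (horizontal axis, mutant against WT on TPM + 1) with its 95% confidence interval from limma; triangles give the value without mutant 1 and the dashed line the median of all genes tested (-0.04). The intervals of 8 members lie above 0 before adjustment for multiple tests, those of Isl1 and Tbx2 include 0, and every triangle lies to the left of its point.

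Mutant 1 was the highest embryo for 9 of the 10 members, all but Isl1. It held 2.92 times the WT mean of Tbx20, 2.74 times that of Nkx2-5 and 1.69 times that of Hand2. Without it 8 members were still on average higher and 2 lower, with a median log2 fold change of 0.38 in place of 0.55. The count of members that did not overlap was 4 without mutant 1 (all higher, against 4.87% of all genes) and 7 without WT 1 (all higher, against 4.31%), the WT embryo that overlapped mutants for Hand1, Hand2 and Hopx. Without mutants 3 and 4 the count was 7, against 16.6% of all genes. At an unadjusted p under 0.05, 8 members were higher without mutant 1 (against 4.91% of all genes), 8 without WT 1 (3.84%) and 8 without mutants 3 and 4 (9.93%). In the other direction, Tbx2 was lower at that level without mutant 1 (against 14.2% of all genes) and Isl1 without WT 3 (against 6.32%).

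The members were also set against the 22 chamber and contractile genes, which encode myosins, actin, troponins, calcium handling proteins and natriuretic peptides. Of these, 19 were on average higher in mutants, against 37.7% of all genes, and 3 were lower. At an unadjusted limma p under 0.05 there were 11, all higher, against 5.55% of all genes in that direction, and none passed after adjustment. The median log2 fold change of the 22 genes was 0.45, or 0.24 without mutant 1. The mean of their log2(TPM + 1) was 5.49, 5.69, 5.25 and 5.64 in the WT embryos, in order of number, and 6.48, 5.63, 5.87 and 5.57 in the mutants. The 2 summaries of this list differ for mutants 2 and 4. By summed TPM both lay above the highest WT embryo (2870 and 3181 against 2798 TPM). By the mean of logs, in which each gene counts the same, both lay within the WT range, and mutant 1 far above it.

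Subtracting the mean of logs from each member in the same embryo gives a log2 level relative to heart muscle. Relative to heart muscle, Nkx2-5 was at -1.77 ± 0.14 (SD, n = 4) in WT and -1.30 ± 0.22 in mutants, and Tbx20 at -2.57 ± 0.16 and -2.18 ± 0.11. All mutants were above all WT embryos for both, as they were for 0.213% of all genes on this scale and 3.63% in TPM. The share is low on this scale since the muscle genes subtracted were themselves higher in mutants. Hopx (difference 0.02), Hand2 (0.11), Mef2c (0.17), Tbx1 (0.19), Hand1 (0.21) and Tbx5 (0.36) overlapped. Thus the separation of Mef2c and Tbx5 seen in TPM did not hold on this scale.

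On the same scale Isl1 and Tbx2 separated the groups downwards. Tbx2 was at -1.34 ± 0.09 (SD, n = 4) relative to heart muscle in WT and at -1.90 ± 0.12 in mutants, and Isl1 at -1.41 ± 0.24 and -2.17 ± 0.42. All mutants lay below all WT embryos for both, which on this scale also held for 14.2% of all genes, since the muscle genes themselves were higher in mutants. Mutant 1, the highest embryo for Tbx2 in TPM, was at -1.90 relative to heart muscle, close to mutants 3 (-1.92) and 4 (-2.02). With the muscle mean as a covariate in limma, the log2 fold change was -0.58 for Tbx2 (adjusted p = 0.203) and -0.57 for Isl1 (adjusted p = 0.256). It was 0.48 for Nkx2-5 (adjusted p = 0.221) and 0.40 for Tbx20 (adjusted p = 0.222). No member passed. At an unadjusted p under 0.05 in that fit, 4 members (Nkx2-5, Tbx5, Tbx20 and Mef2c) were higher, against 4.71% of all genes. At the same level 2 members, Isl1 and Tbx2, were lower, against 13.1% of all genes.

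**Figure D3:**
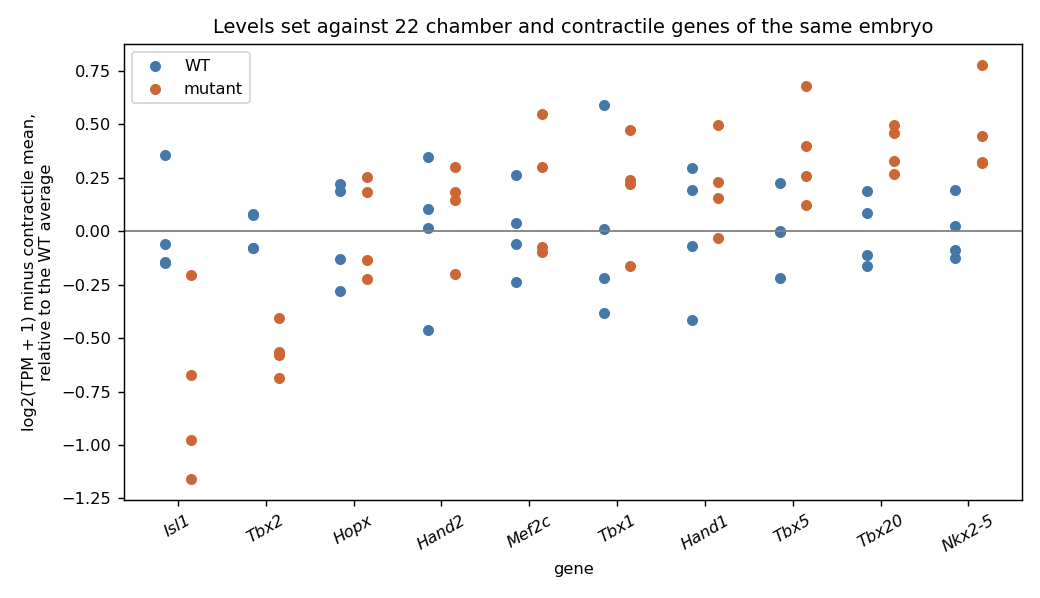
Level of each member minus the mean of 22 chamber and contractile genes of the same embryo, on the log2(TPM + 1) scale and set to 0 at the WT average (vertical axis); points are the 4 WT and 4 mutant embryos. Mutants lie below WT for Isl1 and Tbx2 and above WT for Tbx20 and Nkx2-5, and the other 6 genes overlap.

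The other genes of the heart programme were taken from lists of signals and regulators. Of 11 heart signals tested, 10 were on average higher in mutants, against 37.7% of all genes. At an unadjusted limma p under 0.05 there were 4, all higher, against 5.55% of all genes in that direction, and none passed after adjustment. The median log2 fold change of the 11 signals was 0.32, or 0.16 without mutant 1. Bmp2, a ligand that induces Tbx2 in the atrioventricular canal, had means of 8.45 ± 0.877 TPM (WT) and 15.6 ± 2.72 TPM (mutants; SD, n = 4 each), while the mean of Tbx2 was not higher. Tgfb2, a ligand of cushion formation, was at 8.73 ± 1.22 and 17.1 ± 3.76 TPM. Wnt2, a ligand of the posterior second heart field, was at 20.4 to 28.4 TPM in WT embryos and at 38.8 ± 14.6 TPM in mutants.

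Of 26 other heart regulators tested, 22 were higher on average, 10 of them at an unadjusted limma p under 0.05, 1 gene was lower at that level and none passed after adjustment. Their median log2 fold change was 0.17, or 0.12 without mutant 1 and 0.30 without mutants 3 and 4. The Gata factors, which bind DNA together with Nkx2-5 and Tbx5, did not overlap between the groups: Gata4 had means of 11.1 ± 2.71 TPM (WT) and 27.4 ± 6.71 TPM (mutants; SD, n = 4 each), Gata5 at 8.85 ± 0.404 and 17.2 ± 3.38 TPM, and Gata6 at 10.2 ± 0.785 and 17.0 ± 4.19 TPM. Myocd, a coactivator of serum response factor, was at 3.19 ± 0.650 and 6.29 ± 1.28 TPM. Among the 22 chamber and contractile genes, the smallest p-values in limma were those of Atp2a2 and Myh6. Myh6 was at 65.0 ± 12.6 and 138.8 ± 36.7 TPM. Atp2a2 was at 209.5 ± 10.8 and 264.8 ± 5.15 TPM. The 3 genes of that list with lower means in mutants, named after their values were seen, were Nppa, Nppb and Pln. Their log2 fold changes were -0.37, -0.55 and -0.03.

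**Figure D4:**
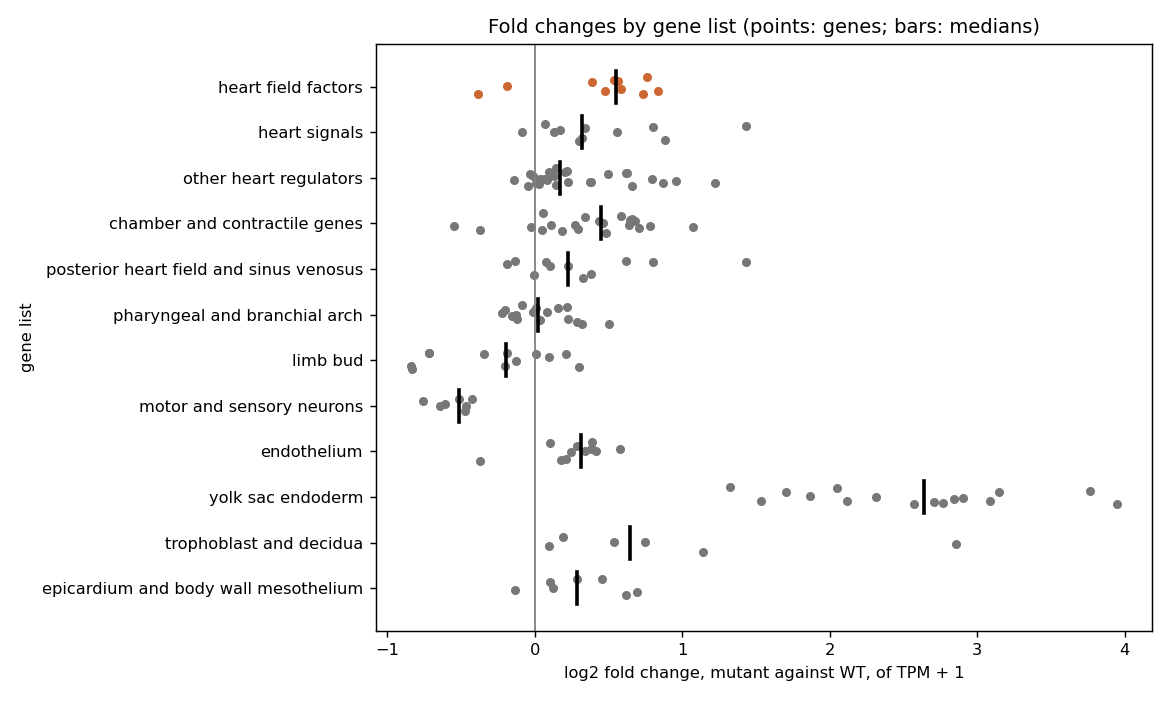
Log2 fold change of every tested gene in 12 gene lists (horizontal axis, mutant against WT on TPM + 1; points are genes, bars medians, vertical scatter is only for display). The heart field factors have a median of 0.55, with Isl1 and Tbx2 to the left of 0, beside 0.45 for chamber and contractile genes, -0.52 for motor and sensory neurons and 2.64 for yolk sac endoderm.

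The genes whose profiles over the 8 embryos were most like those of the members were found by the root mean square difference between centred log2(TPM + 1) profiles. This is a description over 8 embryos, and the nearest of many genes is always near. The profile of Nkx2-5 had a spread of 0.53 around its mean and differed by 0.06 from that of Rassf5 and, among the heart lists, by 0.11 from that of Actc1, the cardiac actin. Tbx5 was nearest to Rassf5 too (0.08), and among heart genes to Myocd (0.09). Tbx20 was nearest to Myom1 (0.09), a protein of the sarcomere, and to Tnnt2 (0.12), cardiac troponin T. Mef2c was nearest to Alpk3 (0.04), a kinase of heart muscle, and to Gata6 (0.14).

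Other members had neighbours of other kinds. Hand1 was nearest to Pmp22 (0.08) and, among heart genes, to Wnt2 (0.11). Hand2 was nearest to Tdgf1 (0.13) and to Bmp4 (0.17), Hopx to Renbp (0.07) and Zfpm2 (0.13), and Tbx1 to Dsg2 (0.10) and Nkx2-6 (0.20). Tbx2 was nearest to Synpo (0.05), and no heart gene came closer to it than Smarcd3 (0.19). Isl1 had the most distant neighbours, Lockd (0.14) among all genes and Tbx3 (0.30) among heart genes, against its own spread of 0.35. Within the 10 factors, Nkx2-5 and Tbx5 were nearest to each other (0.12), and Tbx20 was nearest to Nkx2-5 (0.15).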

How the data were processed

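RNA from 8 single whole embryos was sequenced, per the labels' protocols after library preparation with a TruSeq RNA kit. The authors deposited 1 table of TPM per gene symbol, each library summing to 1000000. The build is GRCm38 (mm10), per the submitters' processing notes. No aligner, counter, annotation or strand setting is named there or in the labels. All 8 columns were matched to samples by title. Read numbers were recovered from the steps of TPM times merged exon length in GENCODE M21. Of genes under 100 reads, 97.6% to 97.8% came out whole within 0.02 reads, as did all 10 members.

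Genes with at least 1 TPM in at least 4 embryos (13596) were kept, which included all 10 members. Log2(TPM + 1) values were fitted in limma 3.58.1 (R 4.3.3) with genotype alone in the model and a variance trend. Tests were two-sided, with Benjamini-Hochberg adjustment over all genes kept. Exact permutation tests used all 70 assignments. Adding 1 TPM shrinks the fold change of low genes. P-values measure the spread between embryos. Gene positions are from GENCODE M21.

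The members and gene lists were chosen with earlier results of these data known, so agreement with those is not independent support. Genes named are all members, up to 4 genes of smallest p in each list, and for each member the nearest profile among all genes (without unnamed loci) and among heart genes. Exceptions among list genes are marked where they are named. Alternatives were other pseudocounts, filters, scalings and weights, covariates, leaving out embryos, the replicate block, voom and permutation per gene. Voom and the contractile covariate were added after seeing the data. The deviations of WT and mutant embryos with the same number had correlations of -0.06, 0.04, -0.19 and -0.25, and no pairing was used in the main fit. Since litters are not given, these values cannot exclude that the numbers pair embryos.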

Additional observations from a re-analysis of the deposited data

Results flagged for a closer look

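Tbx20 in mutant 1, at 19.7 TPM, stood far from the other mutants, which lay between 9.46 and 10.9 TPM. Its gap to the nearest of them was 0.862 of the range of the group, above the critical value of 0.829 in Dixon's test for 4 samples. It was the only such value among 20 groups (10 genes in 2 genotypes), and chance gives about 1 in 20. Mutant 1 was also the embryo with the highest summed level of contractile genes (5396 TPM) and of yolk sac genes (1422 TPM). Their part in the Tbx20 value was not tested.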

How the results depend on the processing

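Over 23 alternative settings no member passed the threshold, with limma adjusted p-values down to 0.104 (array weights). In the permutation setting none could pass. Of 230 fold changes of members, 229 kept their sign. The exception was Tbx2, whose log2 fold change was 0.053 without mutants 3 and 4. Settings that change only the filter, the variance trend, the replicate block or the p-value leave the fold change as it was. Those signs were therefore fixed in advance. The members that did not overlap numbered 4 to 7 when an embryo was left out in turn, the highest without WT 1 (against 4.31% of all genes), and 7 without mutants 3 and 4 (against 16.6%). The members at an unadjusted p under 0.05 numbered 8 in the reported comparison, 2 (Nkx2-5 and Tbx5) with the yolk sac mean as a covariate (against 1.65% of all genes) and 4 in the exact permutation test (against 3.63%). Exact permutation p-values step from 0.0286 to 0.0571, so the 4 members there are those whose groups did not overlap. The cause of the lower count with the yolk sac mean, where the SE of members was also larger, was not tested. Over all genes, 3 genes were called higher without mutants 3 and 4 (Gsn, Prap1 and Gpx3) and 0 to 1 were called lower when an embryo was left out, the gene being Gm28230 without mutant 2; these were named after their values were seen. The replicate block changed no call: it gave 0 members and 0 genes past the threshold. A balanced block cannot change a fold change, so Nkx2-5 stayed at 0.84. With the block the SE was lower for Hand1 (0.09 against 0.19), Hopx (0.10 against 0.14) and Hand2 (0.12 against 0.15). It was slightly higher for Tbx2, Tbx5, Tbx20 and Mef2c. Among 273 values of lists and of levels relative to contractile genes, 1 moved by more than the spread between embryos: the median of the other heart regulators was 0.30 without mutants 3 and 4. With 4 embryos a group, the SE of members in the reported comparison was 0.14 to 0.21 on the log2 scale. The fewest reads behind a member value were 307.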

Other observations

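Of 11 tested genes of the inflow end of the heart, where the sinus venosus and pacemaker form, 8 were on average higher in mutants. This held for 37.7% of all genes. The median log2 fold change of the 11 was 0.22, or 0.14 without mutant 4 and 0.11 without mutants 3 and 4. Hcn4, the pacemaker channel, had means of 4.93 ± 0.906 TPM (WT) and 9.35 ± 1.91 TPM (mutants; SD, n = 4 each), and the groups did not overlap. Sfrp5, a WNT inhibitor of inflow progenitors, was at 5.90 ± 1.50 and 18.2 ± 6.51 TPM, also without overlap. Tbx18, a T-box factor of the sinus venosus and epicardium, was at 5.31 ± 1.57 and 8.72 ± 2.79 TPM, with 1 mutant (6.68 TPM) below WT 4 (7.14 TPM). In limma none of them passed (adjusted p = 0.262 for Hcn4, 0.209 for Sfrp5 and 0.317 for Tbx18).

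Of 7 tested genes of the epicardium and body wall mesothelium, 6 were on average higher in mutants, against 37.7% of all genes. Their median log2 fold change was 0.29, or 0.15 without mutant 1. Upk1b had means of 3.71 ± 1.31 TPM (WT) and 6.68 ± 2.75 TPM (mutants; SD, n = 4 each) without overlap of the groups, and it did not pass in limma (adjusted p = 0.329). Upk3b was at 37.9 TPM in mutant 1 and at no more than 17.9 TPM in any other embryo.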
